A study of Mus musculus with 10 samples.

Results

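The genes described here encode the oxidative core of mitochondrial fuel metabolism: 14 genes of the tricarboxylic acid (TCA) cycle, 7 genes of pyruvate entry and 17 genes of branched-chain amino acid catabolism. They were chosen by name: a gene belongs to the module if its symbol in the counts table equals one on the list. All 38 were among the 56748 genes of the table, and all 38 were among the 14270 genes that passed the filter on low counts.

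RNA-seq compared primary adipocytes of 5 control and 5 KO cultures, to ask which transcripts in fat cells depend on the secretory pathway kinase FAM20C. Inguinal stromal vascular fractions of male mice 6 to 8 weeks old were differentiated for 6 to 8 days with insulin, dexamethasone, IBMX and rosiglitazone. Control cells had the genotype Fam20c-flox and KO cells the genotype Fam20c-flox/Adipoq-Cre, so both groups carried the floxed allele and only the KO group carried Cre. The adiponectin promoter that drives this Cre is active in adipocytes, and the other cells of a stromal vascular culture keep Fam20c. Neither the labels nor the methods say whether the 5 cultures of a group came from separate mice, so p-values measure the spread between these cultures.

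The TCA cycle oxidizes acetyl-CoA to carbon dioxide and hands the electrons to the respiratory chain. Pyruvate reaches it as acetyl-CoA through the pyruvate dehydrogenase complex, which kinases switch off and phosphatases switch on by acting on its E1 subunit, or as oxaloacetate through pyruvate carboxylase, which in fat cells also feeds fatty acid synthesis and glyceroneogenesis. Differentiated adipocytes take up leucine, isoleucine and valine, transaminate them in mitochondria and commit them to oxidation at the branched-chain ketoacid dehydrogenase complex, and the carbon then enters the cycle or is built into fat.

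Total counts were 18949106, 26237825, 20919307, 21253808 and 23174024 in control libraries 1 to 5 and 20640487, 23291792, 22703260, 21686258 and 19883101 in KO libraries 1 to 5. At this depth the members had between 314 (Pdp1) and 44185 (Cs) counts in a library. Levels are CPM after TMM scaling with their SD over 5 libraries, and fold changes are KO over control on the log2 scale. On the leading principal component, which held 23.5% of the variance, control library 4 and KO library 1 lay together and apart from the other 8.

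Fam20c (chromosome 5, 138754514 to 138810077) had 8.86, 10.3, 11.9, 9.09 and 11.2 CPM across controls 1 to 5, against 6.65, 7.29, 7.11, 7.70 and 7.74 CPM across KO 1 to 5. The groups did not overlap, and all KO libraries were the lower ones. Fam20c fell by edgeR's quasi-likelihood test (log2 fold change -0.49, standard error (SE) 0.093, Benjamini-Hochberg adjusted p = 0.0137), with an exact 2-sided permutation p of 0.00794, the smallest that 5 against 5 can give. Reads from floxed and other exons are pooled in these gene counts.

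The 9 adipocyte markers together made up 36965, 36472, 36158, 35808 and 37021 CPM across controls 1 to 5, against 38148, 39289, 39340, 37626 and 37070 CPM across KO 1 to 5, with Fabp4 the most abundant and Lep the lowest (1.06 ± 0.479 CPM for control against 0.845 ± 0.270 CPM for KO (SD over 5)). By edgeR, 0 of the 9 passed the adjusted limit and 3 were higher at an unadjusted p under 0.05, against 4.43% of all genes. DESeq2 called 1 higher, against 0.876% of all genes, and the median log2 fold change was 0.057. Of the muscle markers, Myod1, Ckm and Myh4 were too low to be tested, and Acta1 had 7.60 ± 1.61 CPM for control against 7.14 ± 1.38 CPM for KO (SD over 5).

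After TMM scaling, 37 of the 38 log2 fold changes were above 0, against 49.7% of all genes tested, while 35 of 38 against 40.8% were with library totals alone and 28 of 38 against 22.9% with scaling to the adipocyte markers. The median over the 38 was 0.096 against -0.00085 over all genes. With the adipocyte markers, a scaling chosen after the data were seen, the median was 0.027 and that over all genes -0.070, so both moved down by about the same amount. Single differences were small, and edgeR's quasi-likelihood test called 1 of the 38 after Benjamini-Hochberg adjustment, Idh2, which was higher, where 2.17% of all genes were called and 0.308% were called higher. These shares depended on single libraries too: the 2.17% was 1.43% without control 5, 1.30% without KO 2 and 1.34% without KO 5, and the 0.308% was 0.160% without control 1, 0.167% without control 3, 0.827% without control 4, 0.132% without control 5, 0.160% without KO 2, 0.201% without KO 3, 0.167% without KO 4 and 0.159% without KO 5. DESeq2 called 5 of 38 higher (Idh2, Idh3a, Pdha1, Dlat and Auh), against 0.876% of all genes. At an unadjusted p under 0.05, 22 of the 38 were higher and 0 lower, against 4.43% of all genes higher (7.60% without control 4). Of all 14270 genes, 632 were higher and 1065 lower at that limit. The count of 22 was 7 with library totals alone, 1 with scaling to the adipocyte markers, 14 without control 1 and 11 without KO 4. With these 2 scalings 2.35% and 0.967% of all genes were higher at that limit, and without control 1 and KO 4 in turn 3.40% and 3.96%. Every KO library lay above every control library for 7 members, against 1.31% of all genes. For 0 members did every KO library lie below, against 380 of all 14270 genes. Without control library 4 and KO library 1 together, 3 members were called higher (Idh2, Idh3a and Dlat), against 1.01% of all genes, and the medians were 0.11 for the TCA cycle, 0.13 for pyruvate entry and 0.073 for branched-chain catabolism.

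**Figure D1:**
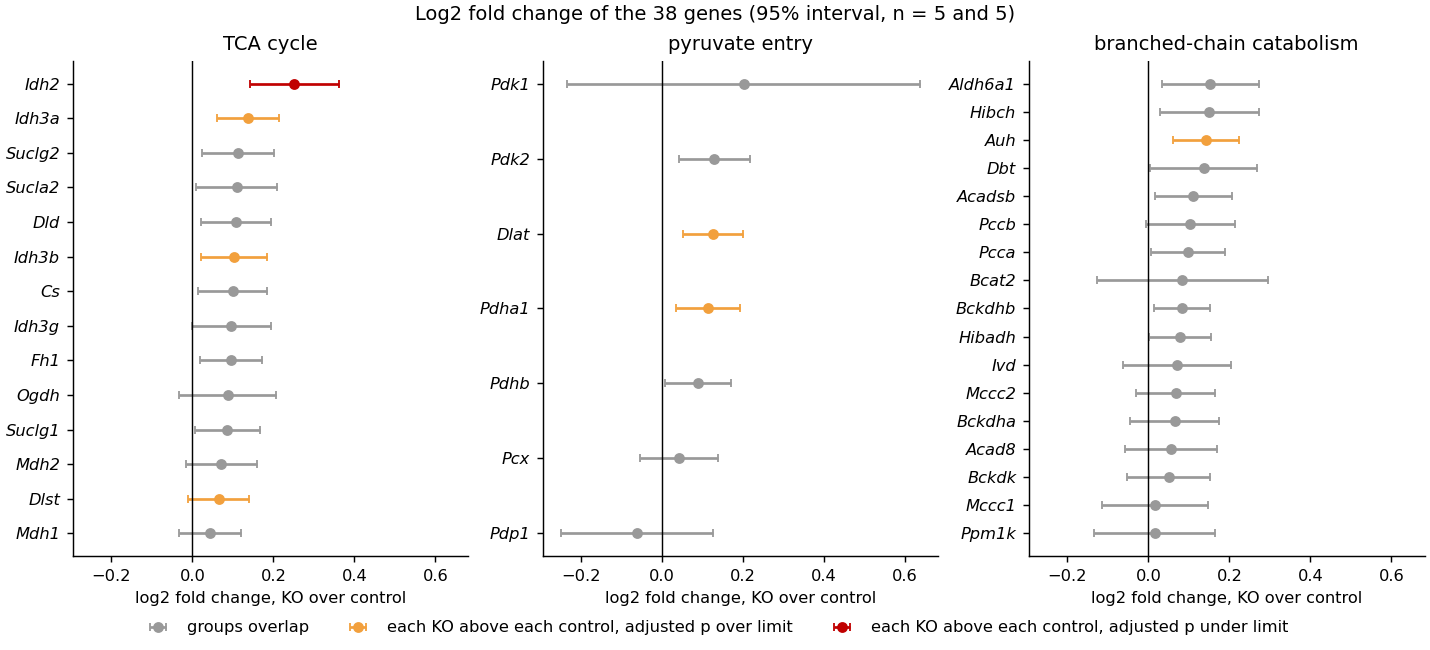
Log2 fold change of KO over control (x axis) for each of the 38 genes (y axis), in panels for TCA cycle, pyruvate entry and branched-chain catabolism; points are the estimates of edgeR's fit after TMM scaling and bars their 95% intervals (n = 5 and 5), in grey where the groups overlap and in colour where each KO library lay above each control library. All points but Pdp1 (-0.063) lie right of 0, against 49.7% of all genes, and Idh2 (0.25) is the only one past the adjusted limit after TMM scaling. With scaling to the adipocyte markers 28 of 38 are right of 0, against 22.9% of all genes. With library totals alone 35 of 38 are, against 40.8%.

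The median over the genes of a group was read in each library, as the log2 ratio to the control mean after TMM scaling. It was not read with other scalings, so these values do not show whether the groups stay apart there. For the TCA cycle this median was -0.027, -0.021, 0.014, -0.012 and 0.040 across controls 1 to 5, against 0.062, 0.089, 0.087, 0.16 and 0.10 across KO 1 to 5. The KO libraries all lay above the control libraries, with KO library 1 the nearest to them, though 2 of the 14 fold changes were below 0 with scaling to the adipocyte markers. For pyruvate entry it was 0.011, -0.012, -0.032, 0.070 and -0.018 across controls 1 to 5, against 0.085, 0.087, 0.082, 0.12 and 0.10 across KO 1 to 5. Here too the groups did not overlap, and control library 4 was the nearest to the KO libraries. Of the 7 fold changes 2 were below 0 with scaling to the adipocyte markers, against 1 after TMM scaling. For branched-chain catabolism it was 0.016, 0.037, -0.00097, -0.11 and 0.012 across controls 1 to 5, against -0.028, 0.11, 0.13, 0.10 and 0.13 across KO 1 to 5. The groups overlapped, because KO library 1 lay below 4 of the 5 control libraries, and control library 4 was the lowest of the 10. Among the other 8 libraries the 4 KO medians lay above the 4 control medians. Summed over the 38 genes after TMM scaling, the module had 17411, 17486.5, 17156, 17428 and 17590 CPM across controls 1 to 5. Across KO 1 to 5 the sum was 18108, 18658, 18568, 18921 and 18769 CPM. These sums carry the TMM scaling, so they are not shares of the counts in a library. Whether the sums of the groups stay apart without that scaling was not tested.

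**Figure D2:**
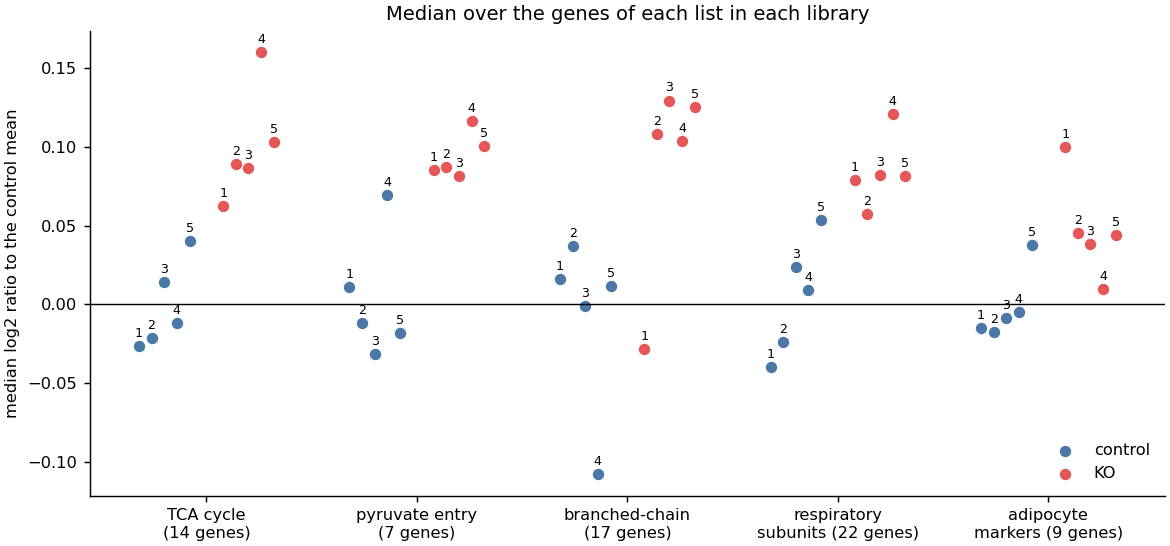
Median over the genes of each list of the log2 ratio of a library's CPM to the control mean (y axis), for the 3 groups of the module, 22 respiratory subunits and 9 adipocyte markers (x axis); each point is 1 library, blue for control and red for KO, with its replicate number. After TMM scaling the TCA cycle and pyruvate medians of KO libraries lie above those of control libraries. These medians were not read with other scalings. With scaling to the adipocyte markers 2 of 14 and 2 of 7 fold changes are below 0, against 0 of 14 and 1 of 7 (Pdp1) after TMM scaling. Control 4 (-0.11) and KO 1 (-0.028) are the lowest of their groups for branched-chain catabolism.

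Endothelial markers summed to 153, 159.5, 185, 187 and 182 CPM across controls 1 to 5, against 91.8, 74.6, 75.8, 61.1 and 68.9 CPM across KO 1 to 5, and 10 of 12 were called lower in KO by edgeR's test (Pecam1, Cdh5, Kdr, Tie1, Emcn, Esm1, Robo4, Cldn5, Egfl7 and Erg), with Cdh5 the most abundant (53.1 ± 5.11 CPM for control against 22.1 ± 3.67 CPM for KO (SD over 5)). Fibroblast and progenitor markers summed to 5567, 5052, 6524, 5367 and 6063 CPM across controls 1 to 5, against 4772, 4226, 4311, 5015 and 4435 CPM across KO 1 to 5, and 4 of 9 were called lower (Pdgfra, Cd34, Col1a1 and Col3a1), with Col3a1 the most abundant (2630 ± 388 CPM for control against 1896 ± 167 CPM for KO (SD over 5)). Beside these 10 of 12 and 4 of 9 markers, 265 of all 14270 genes were called lower by edgeR's test. The calls of the collagens were not stable: edgeR's adjusted p for Col1a1 was 0.0508 with RLE size factors, 0.0800 without control 1, 0.132 without control 3, 0.0603 without control 4, 0.114 without control 5, 0.138 without KO 2, 0.0952 without KO 3, 0.0557 without KO 4 and 0.108 without KO 5, and for Col3a1 it was 0.0547 without control 5, 0.0630 without KO 2 and 0.0651 without KO 5. Macrophage markers summed to 1800, 1451, 2116, 1453 and 1363 CPM across controls 1 to 5, against 1993, 1297, 2000, 1859 and 1203 CPM across KO 1 to 5, led by Lyz2, and 0 of 8 were called by edgeR or DESeq2 or had an unadjusted p under 0.05. Of 5 pericyte and smooth muscle markers tested, 0 were called by edgeR or DESeq2. At an unadjusted p under 0.05, 3 were lower, against 1065 of all 14270 genes. In the pericyte list Cspg4 was the most abundant (36.8 ± 6.89 CPM for control against 35.1 ± 4.57 CPM for KO (SD over 5)), and the sum was 74.4, 74.3, 82.5, 94.9 and 78.3 CPM across controls 1 to 5, against 67.6, 75.8, 54.2, 76.3 and 72.4 CPM across KO 1 to 5. No gene of these lists was at 0 in all libraries. Brown and beige markers summed to 537, 537, 499, 485 and 523 CPM across controls 1 to 5, against 521, 565, 603, 582 and 571 CPM across KO 1 to 5, with Elovl3 the most abundant (438 ± 41.8 CPM for control against 447 ± 40.4 CPM for KO (SD over 5)). DESeq2 called 2 of 4 higher, against 0.876% of all genes, and edgeR 1 of 4, against 0.308%. This was Ucp1, with 15.9 ± 5.62 CPM for control against 29.1 ± 3.96 CPM for KO (SD over 5) (log2 fold change 0.87, adjusted p = 0.0284 by edgeR), and its adjusted p was 0.0725 without control 1, 0.0693 without control 2, 0.0813 without control 3, 0.0576 without control 5, 0.0575 without KO 2, 0.0774 without KO 4 and 0.0856 without KO 5. The part of these cell types in the values of the module was not tested, and in bulk cultures fewer cells of a type and less RNA per cell cannot be told apart.

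For the TCA cycle all 14 log2 fold changes were above 0 after TMM scaling (median 0.098, range 0.043 to 0.25) and 12 of 14 with scaling to the adipocyte markers (median 0.028). By edgeR 1 of the 14 was called and 10 were higher at an unadjusted p under 0.05, against 0.308% and 4.43% of all genes. DESeq2 called 2, against 0.876%. The count of 10 was 2 with library totals alone, 1 with scaling to the adipocyte markers, 6 without control 1 and 5 without KO 4. In these fits 2.35%, 0.967%, 3.40% and 3.96% of all genes were higher at that limit. With a block for replicate number the count was 6, against 3.72% of all genes. Levels per length are given as CPM per kilobase of the longest principal transcript. On that scale mitochondrial malate dehydrogenase, Mdh2 (chromosome 5, 135778480 to 135790398), had the highest control level of the group, 685 ± 28.6, ahead of Mdh1, its cytosolic counterpart in the malate-aspartate shuttle (569.8 ± 11.3), and Cs, the citrate synthase that opens the cycle (568 ± 19.1). The levels of Mdh1 and Cs did not differ beyond their spread. With lengths taken over all annotated exons, a choice made after the data were seen, Mdh1 was the highest instead (471 against 280.0 for Mdh2), so the order at the top depends on the length used.

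**Figure D3:**
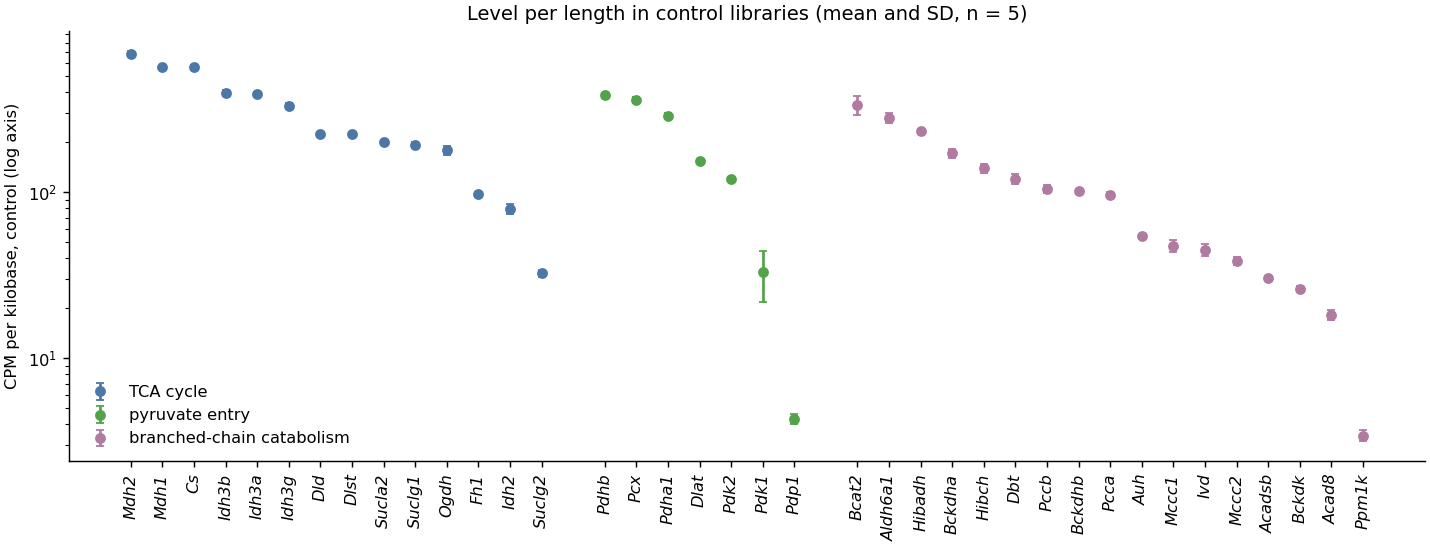
Control level of each of the 38 genes in CPM per kilobase of the principal transcript (y axis, log scale), ordered within TCA cycle, pyruvate entry and branched-chain catabolism (x axis); points are means and bars the SD over 5 libraries. Levels run from 685 for Mdh2 down to 3.42 for Ppm1k, and the phosphatases Pdp1 and Ppm1k are the lowest of their groups.

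Idh2, the mitochondrial isocitrate dehydrogenase that yields NADPH, was the member that passed the adjusted limit. Idh2 (ENSMUSG00000030541.17; chromosome 7, 80094846 to 80115392, minus strand) had 127, 153, 142, 134 and 139 CPM across controls 1 to 5, against 157, 159, 171, 171 and 170.1 CPM across KO 1 to 5. Every KO library lay above every control library, with KO 1 and 2 the nearest to control 2. The means were 139 ± 9.57 CPM for control against 166 ± 6.93 CPM for KO (SD over 5), a log2 fold change of 0.25 (95% interval 0.14 to 0.36, adjusted p = 0.0201 by edgeR), which is 19.1% more. The call is close to the limit: edgeR's adjusted p was 0.0544, 0.0579, 0.0558, 0.0584 and 0.0668 without control 1, control 5, KO 3, KO 4 and KO 5 in turn, 0.0665 with library totals alone and 0.0751 with scaling to the adipocyte markers, where the log2 fold change was 0.18. Over the 18 alternatives its log2 fold change ran from 0.18 to 0.29 and its adjusted p from 0.000696 (DESeq2) to 0.0751.

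The NAD-linked isocitrate dehydrogenase, the form that drives the cycle, is built from Idh3a, which carries the catalytic site, and the regulatory subunits Idh3b and Idh3g. Idh3a (chromosome 9, 54586334 to 54604661) had 946, 927, 928, 965 and 956 CPM across controls 1 to 5, against 1015, 1028, 1022, 1081 and 1045 CPM across KO 1 to 5. The groups did not overlap, and the gap between the highest control and the lowest KO library was larger than the SD of either group. Its log2 fold change of 0.14 (SE 0.035) missed the limit by edgeR (adjusted p = 0.0766) and passed it by DESeq2 (adjusted p = 0.000170). Idh3b (chromosome 2, 130279309 to 130284547) had 620.2, 626, 658, 643 and 674 CPM across controls 1 to 5, against 677, 684, 678, 706 and 713 CPM across KO 1 to 5. Its groups were also apart, with control 5 and KO 1 nearly touching, and its log2 fold change was 0.10 (adjusted p = 0.261 by edgeR). Idh3g had 443 ± 15.2 CPM for control against 473 ± 25.7 CPM for KO (SD over 5). Per kilobase, Idh3a stood at 0.986 ± 0.0343 times Idh3b in control and 1.01 ± 0.0161 times in KO cultures (SD, n = 5), and at 1.18 ± 0.0574 times Idh3g in control and 1.22 ± 0.0431 times in KO cultures. Idh3a stood at 4.96 ± 0.395 times Idh2 in control and 4.56 ± 0.152 times in KO cultures, a difference of about 1 SD of the control libraries, with overlapping groups.

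**Figure D4:**
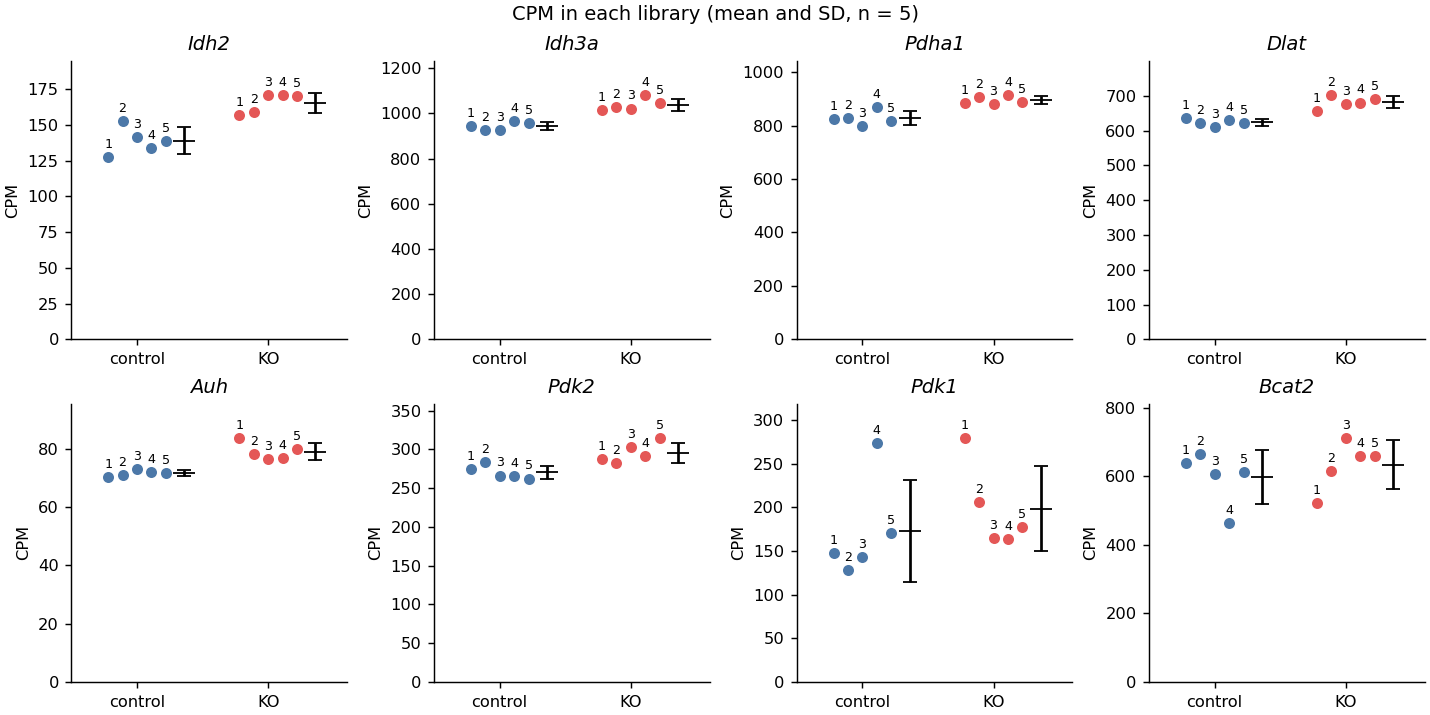
CPM (y axis) of Idh2, Idh3a, Pdha1, Dlat, Auh, Pdk2, Pdk1 and Bcat2 in control and KO cultures (x axis); each point is 1 library with its replicate number, and the bars beside them are the mean and SD (n = 5). For the first 5 genes every KO library lies above every control library, while Pdk1 is highest and Bcat2 lowest in control 4 (273 and 464 CPM) and KO 1 (279 and 521 CPM) within their groups.

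Cs (chromosome 10, 128337734 to 128362479) had 1619, 1657, 1607, 1747 and 1682 CPM across controls 1 to 5, against 1775, 1772, 1729, 1836 and 1793 CPM across KO 1 to 5. Control 4 lay above KO 3, so the groups overlapped, and the log2 fold change was 0.099 (95% interval 0.015 to 0.18, adjusted p = 0.310 by edgeR). Dlst, the E2 subunit of the 2-oxoglutarate dehydrogenase complex (chromosome 12, 85110833 to 85134845), had 626, 605, 626, 616 and 622 CPM across controls 1 to 5, against 634, 639, 635, 680.3 and 649 CPM across KO 1 to 5. Its groups were apart by a narrow margin, and its log2 fold change of 0.065 missed the limit (adjusted p = 0.505 by edgeR) and was -0.0046 with scaling to the adipocyte markers. The E1 subunit Ogdh had 739 ± 43.3 CPM for control against 785 ± 52.2 CPM for KO (SD over 5), and Dld, the E3 subunit that this complex shares with those of pyruvate and branched-chain ketoacids, had 571 ± 10.5 CPM for control against 615 ± 28.6 CPM for KO (SD over 5). Neither was called.

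Succinyl-CoA ligase pairs the common subunit Suclg1 with Sucla2, which makes ATP, or with Suclg2, which makes GTP. Suclg2 (chromosome 6, 95473009 to 95718800) had the lowest level per length of the TCA cycle group, 32.5 ± 1.44 CPM per kilobase in control, and 107, 113, 105, 107 and 116 CPM across controls 1 to 5, against 114, 120.2, 121, 122 and 114 CPM across KO 1 to 5. Control 5 exceeded KO 1 and KO 5, so the groups overlapped. Per kilobase, Sucla2 stood at 6.17 ± 0.285 times Suclg2 in control and 6.14 ± 0.273 times in KO cultures (SD, n = 5). With lengths over all annotated exons the control value was 4.73, so the ATP-forming partner had the higher level on both lengths. A difference in this ratio between genotypes was not tested. Mdh2 had 966, 974, 1056, 964 and 1026 CPM across controls 1 to 5, against 1042, 1022, 1084, 1027 and 1065 CPM across KO 1 to 5. Only KO 3 and KO 5 lay above the highest control, control 3, and the log2 fold change was 0.072 (adjusted p = 0.543 by edgeR). Suclg1, Fh1 (fumarase) and Mdh1 had log2 fold changes of 0.086, 0.096 and 0.043, of which that of Mdh1 was the smallest of the group and was -0.027 with scaling to the adipocyte markers.

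The promoter of Idh2, the member called, is shown with the DNA before its start as RefSeq gives it on GRCm38.p6, from chr7:80115393-80115600 on the minus strand, leaving out the bases that GENCODE assigns to the transcript. Of its 208 bases, 66.3% were G or C, against a median of 51.9% over the same window of all promoters in the table.
Idh2: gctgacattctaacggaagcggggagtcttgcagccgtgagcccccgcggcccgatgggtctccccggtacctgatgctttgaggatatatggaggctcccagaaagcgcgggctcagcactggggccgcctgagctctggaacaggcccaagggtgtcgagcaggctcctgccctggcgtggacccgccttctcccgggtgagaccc
Estrogen-related receptors are known regulators of oxidative genes, and their element TNAAGGTCA (N is any base) was searched on both strands of the RefSeq promoters. Of the 38 members, 35 had an entry, with 47 promoters (Idh3a, Pdp1 and Dbt had none). The element was in 0 of these 47 promoters and in 1.28% of all 32851 promoters in the table. This says only that these letters are not in the window read.

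Pyruvate entry had 6 of 7 log2 fold changes above 0 after TMM scaling (median 0.11) and 5 of 7 with scaling to the adipocyte markers (median 0.043). By edgeR 0 of the 7 were called and 4 were higher at an unadjusted p under 0.05, against 4.43% of all genes. DESeq2 called 2, Pdha1 and Dlat, against 0.876%. The count of 4 was 3 with library totals alone and 0 with scaling to the adipocyte markers, against 2.35% and 0.967% of all genes. In control cultures Pdhb, the beta subunit of E1, had the highest level of the group (384 ± 15.3 CPM per kilobase), followed by Pcx (359 ± 15.8), Pdha1 (291 ± 9.38) and Dlat (155 ± 2.37). The kinases Pdk2 and Pdk1 stood at 120.5 ± 3.79 and 33.3 ± 11.3, and the phosphatase Pdp1 at 4.31 ± 0.310 CPM per kilobase. With lengths over all annotated exons Pcx was the highest instead (307 against 150.4 for Pdhb), and Pdp1 remained the lowest.

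Pdha1 encodes the alpha subunit of E1, on which the kinases act. Pdha1 (chromosome X, 160122209 to 160138413) had 824, 829, 797, 870.1 and 817 CPM across controls 1 to 5, against 886, 907, 881, 913 and 887 CPM across KO 1 to 5. Each KO library lay above each control library, with control 4 the nearest. The log2 fold change was 0.11 (SE 0.036, adjusted p = 0.179 by edgeR and 0.00522 by DESeq2). Pdhb (chromosome 14, 8165996 to 8173025) had 552, 565, 581, 609.6 and 596 CPM across controls 1 to 5, against 623, 617, 615, 629.7 and 602 CPM across KO 1 to 5. Control 4 lay above KO 5, and the log2 fold change was 0.088 (adjusted p = 0.369 by edgeR). Pdha1 stood at 0.758 ± 0.0294 times Pdhb per kilobase in control and 0.770 ± 0.0119 times in KO cultures (SD, n = 5). With lengths over all annotated exons the ratio was 1.47 in control, so which subunit has more transcript depends on the length used.

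Dlat, the E2 subunit that carries the acetyl group, had the smallest unadjusted p of the group. Dlat (chromosome 9, 50634633 to 50659780) had 635, 622, 611, 631 and 622 CPM across controls 1 to 5, against 655, 702, 678, 681 and 691 CPM across KO 1 to 5. The groups were apart, and the control libraries spread over only 1.53% of their mean (SD). The log2 fold change of 0.13 (SE 0.034) missed the limit by edgeR (adjusted p = 0.0936) and passed it by DESeq2 (adjusted p = 0.000345). Without control 4 and KO 1 together it was 0.15 and passed by edgeR (adjusted p = 0.0398). Pcx, pyruvate carboxylase (chromosome 19, 4510472 to 4621752), had 1488, 1447, 1390, 1553 and 1415 CPM across controls 1 to 5, against 1539, 1520, 1451, 1429 and 1566 CPM across KO 1 to 5. Only KO 5 exceeded the control range, whose top was control 4, and the log2 fold change was 0.041 (95% interval -0.055 to 0.14). Without single libraries it was 0.068 without control 4 and 0.026 without KO 5. With scaling to the adipocyte markers it was -0.030, a move of about the size of that of the median over all genes.

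The kinases that switch the complex off differed in how they varied. Pdk2 (chromosome 11, 95026258 to 95041354) had 275, 283, 266, 266 and 262 CPM across controls 1 to 5, against 287, 283, 303, 291 and 315 CPM across KO 1 to 5. KO 2 lay just under control 2, so the groups overlapped by 1 pair, and the log2 fold change was 0.13 (SE 0.040, adjusted p = 0.163 by edgeR). Pdk1 (chromosome 2, 71873224 to 71903858) had 147, 129, 143, 273 and 170.3 CPM across controls 1 to 5, against 279, 206, 165, 163 and 177 CPM across KO 1 to 5. Control 4 and KO 1 stood far above the rest of their groups, and these 2 libraries were higher than any other library of either genotype. The log2 fold change of 0.20 therefore had a wide interval (-0.24 to 0.64), and it was 0.11 without control 2, 0.43 without control 4 and 0.049 without KO 1. Without control 4 and KO 1 together it was 0.27, with no call by edgeR in any of these fits. The phosphatase Pdp1 (chromosome 4, 11958184 to 11966452) had 18.2, 16.0, 19.7, 18.1 and 18.5 CPM across controls 1 to 5, against 15.6, 15.6, 18.9, 20.4 and 16.0 CPM across KO 1 to 5. The groups overlapped, KO 4 being the highest of the 10. Pdp1 was the 1 member with a log2 fold change below 0 after TMM scaling (-0.063, 95% interval -0.25 to 0.13), and it was -0.10 without control 2, -0.029 without control 3, -0.025 without KO 1, -0.021 without KO 2, -0.095 without KO 3, -0.13 without KO 4 and -0.035 without KO 5.

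Among 12 related genes of pyruvate entry (median log2 fold change 0.060), edgeR called 0 lower and 1 higher, against 0.308% of all genes called higher. This was Pdk4, the pyruvate dehydrogenase kinase that fasting and fatty acids are known to induce, with 376, 401, 341, 407 and 357 CPM across controls 1 to 5, against 450.2, 484, 448, 451 and 454 CPM across KO 1 to 5. Each KO library lay above each control library, and the log2 fold change was 0.28 (SE 0.052, adjusted p = 0.0117 by edgeR). Per kilobase, Pdk4 stood at 0.897 ± 0.0598 times Pdk2 in control and 0.999 ± 0.0663 times in KO cultures (SD, n = 5) (Pdk4/Pdk2). With lengths over all annotated exons the control value was 1.25.

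Branched-chain catabolism had all 17 log2 fold changes above 0 after TMM scaling (median 0.083, range 0.015 to 0.15), 15 of 17 with library totals alone and 11 of 17 with scaling to the adipocyte markers (median 0.013). By edgeR 0 of the 17 were called and 8 were higher at an unadjusted p under 0.05, against 4.43% of all genes. DESeq2 called 1, Auh, against 0.876%. The count of 8 was 2 with library totals alone, 0 with scaling to the adipocyte markers, 5 without control 1, 4 without control 3, 5 without KO 2, 5 without KO 3 and 3 without KO 4. In these fits 2.35%, 0.967%, 3.40%, 3.70%, 4.23%, 4.06% and 3.96% of all genes were higher at that limit. With a block for replicate number the count was 5, against 3.72% of all genes. Per kilobase of the principal transcript the first step had the highest level, as Bcat2, the mitochondrial aminotransferase, stood at 337 ± 44.2 CPM per kilobase in control, followed by Aldh6a1 (281 ± 19.1) and Hibadh (235 ± 6.26) of the valine branch. The gap between Bcat2 and Aldh6a1 was smaller than the sum of their SDs, and with lengths over all annotated exons Bckdha was the highest (172 against 153 for Bcat2). The lowest was Ppm1k, the phosphatase that activates the ketoacid dehydrogenase (3.42 ± 0.261).

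Bcat2 (chromosome 7, 45570153 to 45589711) had 637, 666, 607, 464 and 612 CPM across controls 1 to 5, against 521, 616, 712, 658 and 659 CPM across KO 1 to 5. Control 4 and KO 1 were the lowest of their groups, and the other 8 libraries of both genotypes shared a range of 607 to 712 CPM. The log2 fold change was 0.084 (95% interval -0.13 to 0.30), and it was 0.13 without control 2, 0.0085 without control 4, 0.15 without KO 1 and 0.040 without KO 3, so single libraries decided its size. Without control 4 and KO 1 together it was 0.070. Of the 17 branched-chain genes, 9 had control 4 as the lowest control and KO 1 as the lowest KO library (Bcat2, Bckdha, Dbt, Ivd, Mccc1, Mccc2, Hibch, Pccb and Acad8), against 1 of 14 TCA cycle genes (Sucla2) and 0 of 7 pyruvate genes. These counts were made after the values were seen, and the share of all genes arranged this way was not counted. The arrangement was not particular to branched-chain members. Acadl of beta-oxidation (769 CPM in control 4 and 804 CPM in KO 1) and Acadm of the related branched-chain genes (1242 and 1298 CPM) had it too. Acadvl and Hadhb of the same 2 lists did not.

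The branched-chain ketoacid dehydrogenase complex commits the carbon to oxidation. Its E1 alpha subunit Bckdha (chromosome 7, 25629946 to 25658981) had 314, 349.5, 327, 304 and 342 CPM across controls 1 to 5, against 319, 335, 362, 332 and 363 CPM across KO 1 to 5. The groups overlapped over most of their range, and the log2 fold change was 0.065 (95% interval -0.046 to 0.18), or 0.042 without control 4. Bckdhb, the beta subunit, had 149.9 ± 2.51 CPM for control against 159 ± 3.03 CPM for KO (SD over 5), and Dbt, the E2 subunit, 397 ± 27.6 CPM for control against 437 ± 33.2 CPM for KO (SD over 5). Per kilobase, Bckdha stood at 1.69 ± 0.0918 times Bckdhb in control and 1.67 ± 0.120 times in KO cultures (SD, n = 5).

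The kinase Bckdk, which switches this complex off (chromosome 7, 127904082 to 127910221), had 83.8, 90.5, 90.7, 92.5 and 89.9 CPM across controls 1 to 5, against 99.8, 88.9, 87.7, 89.5 and 97.5 CPM across KO 1 to 5. Only KO 1 and KO 5 exceeded the control range, and the log2 fold change was 0.050 (95% interval -0.053 to 0.15), or 0.028 without control 1, 0.025 without KO 1 and 0.031 without KO 5. The opposing phosphatase Ppm1k (chromosome 6, 57506502 to 57535468) had 20.2, 18.1, 16.9, 19.8 and 20.04 CPM across controls 1 to 5, against 17.4, 20.5, 18.1, 20.1 and 19.9 CPM across KO 1 to 5. The groups covered nearly the same range. Its log2 fold change of 0.015 (95% interval -0.13 to 0.17) had no stable sign over the fits with 1 library left out (0.038 without control 1, -0.0013 without control 2, -0.021 without control 3, 0.032 without control 4, 0.036 without control 5, 0.051 without KO 1, -0.0043 without KO 2, 0.038 without KO 3, -0.00056 without KO 4 and 0.0029 without KO 5). Per kilobase, Bckdk stood at 7.73 ± 0.769 times Ppm1k in control and 7.92 ± 0.896 times in KO cultures (SD, n = 5), a difference well within the spread of either group.

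Below the complex the 3 amino acids take separate routes. On the leucine branch, Auh, the methylglutaconyl-CoA hydratase, had the smallest unadjusted p of the group. Auh (chromosome 13, 52835119 to 52929681) had 70.2, 71.1, 73.1, 72.0 and 71.7 CPM across controls 1 to 5, against 83.8, 78.2, 76.4, 77.0 and 79.9 CPM across KO 1 to 5. Each KO library lay above each control library, and the control libraries were tightly spaced. The log2 fold change was 0.14 (SE 0.037), which missed the limit by edgeR (adjusted p = 0.0833) and passed it by DESeq2 (adjusted p = 0.0203). The other leucine genes Ivd, Mccc1 and Mccc2 had log2 fold changes of 0.071, 0.016 and 0.067 and were not called, and the values depended on single libraries. That of Ivd was 0.026 without control 4 and 0.045 without KO 5, that of Mccc2 0.038 without control 4, and that of Mccc1 0.034 without control 1, 0.031 without control 2, 0.037 without control 3, -0.032 without control 4, 0.042 without KO 1 and -0.012 without KO 3. With scaling to the adipocyte markers those of Mccc1 and Mccc2 were -0.054 and -0.0026.

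On the valine branch, Aldh6a1, the methylmalonate semialdehyde dehydrogenase (chromosome 12, 84430717 to 84451004), had 1007, 1038, 885, 919 and 923 CPM across controls 1 to 5, against 971, 1122, 1092, 1081 and 1039 CPM across KO 1 to 5. Control 1 and 2 reached into the KO range, and the log2 fold change of 0.15 was the largest of the branched-chain group (SE 0.055, adjusted p = 0.252 by edgeR). Hibch and Hibadh, which act just before it, had log2 fold changes of 0.15 and 0.078, and Acad8, the isobutyryl-CoA dehydrogenase, 0.056 (0.088 without control 3 and 0.020 without control 4). Acadsb, the isoleucine dehydrogenase, had 0.11. Propionyl-CoA carboxylase, through which isoleucine and valine carbon reaches the cycle, had log2 fold changes of 0.098 for Pcca and 0.10 for Pccb, and none of these was called.

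Genes next to the module on the metabolic map are given beside the calls over all genes, and Pdk4 of the related pyruvate genes is given above. Of all 14270 genes, edgeR called 44 higher (0.308%) and 265 lower, and DESeq2 125 higher (0.876%) and 359 lower. At an unadjusted p under 0.05 by edgeR, 4.43% of all genes were higher. Of 10 related TCA cycle genes, edgeR called 0, with 3 higher at an unadjusted p under 0.05, and DESeq2 called 2 higher (median log2 fold change 0.048). Of 20 related branched-chain genes, edgeR called 0 higher and 1 lower and DESeq2 2 higher and 1 lower (median 0.066). The lower gene was Abat, an aminotransferase of the GABA route, which fell from 29.1 ± 1.11 to 23.7 ± 1.57 CPM (SD, n = 5; log2 fold change -0.30, adjusted p = 0.0121 by edgeR). Of 12 tested genes of anaplerosis and citrate export, edgeR called 0 higher and 1 lower, with 1 higher at an unadjusted p under 0.05, and DESeq2 called 1 higher and 1 lower (median 0.020). The lower gene was Me1, cytosolic malic enzyme, a source of NADPH for lipogenesis, which fell from 605 ± 48.2 to 502 ± 34.7 CPM (SD, n = 5; log2 fold change -0.27, adjusted p = 0.0420 by edgeR). That call is fragile, with an adjusted p of 0.0650 without control 1, 0.0858 without control 3, 0.0515 without control 4, 0.114 without control 5, 0.122 without KO 2, 0.106 without KO 3, 0.0557 without KO 4 and 0.120 without KO 5.

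Of 22 respiratory subunits, 22 had a log2 fold change above 0 after TMM scaling (median 0.084) and 15 with scaling to the adipocyte markers (median 0.014). By edgeR 0 of them were called and 8 were higher at an unadjusted p under 0.05, against 4.43% of all genes. DESeq2 called 3, against 0.876%. The count of 8 was 2 with library totals alone, 0 with scaling to the adipocyte markers, 4 without control 1, 4 without control 2, 5 without KO 3 and 4 without KO 4. In these fits 2.35%, 0.967%, 3.40%, 3.995%, 4.06% and 3.96% of all genes were higher at that limit. With a block for replicate number the count was 5, against 3.72% of all genes. Of 15 beta-oxidation genes, 11 were above 0 after TMM scaling (median 0.045) and 4 with scaling to the adipocyte markers (median -0.025). The median of 0.045 was 0.022 without control 4, 0.078 without KO 1 and 0.018 without KO 4. By edgeR 0 of these 15 were called, with 2 higher and 1 lower at an unadjusted p under 0.05, against 632 and 1065 of all 14270 genes. DESeq2 called 1 higher, against 0.876% of all genes. The count of 2 was 0 with library totals alone, 0 with scaling to the adipocyte markers, 6 without KO 1 and 1 without KO 4, and the count of 1 lower was 2 with scaling to the adipocyte markers. With a block for replicate number the count of 2 was 1. The medians of the TCA cycle (0.098), pyruvate (0.11) and branched-chain genes (0.083) thus lay beside that of the respiratory subunits, and differences between these medians were not tested.

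Exons of 9 members overlap exons of another gene, for example Bckdha with B3gnt8 and Aldh6a1 with Bbof1 on the opposite strand, and the strand setting of the counting is not given in the sources used here. Over the 10 libraries B3gnt8 had 670 counts against 73346 for Bckdha. Pdhb and Suclg2 have pseudogene copies that are 97.0% and 98.9% identical, with 0.238% and 0.653% as many counts as the member itself.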

How the data were processed

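The authors prepared SMARTer libraries, mapped read pairs by STAR (GRCm38.p6) and deposited featureCounts fragment counts that were not normalized. A figure legend of the paper gives n = 4 a group, but the table holds 5 libraries a group, and all 10 entered the fit. Genes of low count were dropped by filterByExpr (minimum count 10), and the 14270 others were compared after TMM scaling by the quasi-likelihood test of edgeR 4.0.16 (R 4.3.3), with p-values adjusted by Benjamini-Hochberg over all of them (limit 0.05). An SE is the absolute log2 fold change over the square root of F. CPM per kilobase used the longest principal transcript of GENCODE M21, which gives positions for all 38 members and for 52125 of 56748 genes; some identifiers of the table are newer than this release. Overlapping exons and pseudogenes were found with bedtools and BLAST 2.17.0. The script was tested on simulated data.

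Members and lists were chosen with earlier results of these data known. Every member may be named. Values in every library are given for members past the limit, members whose groups do not overlap, the 2 smallest unadjusted p and the highest and lowest level per length of each group, and Cs, Pcx, Pdha1, Pdk1, Pdk2, Pdp1, Bcat2, Bckdha, Bckdk and Ppm1k by role. Genes of other lists are named when past the limit and markers also when most abundant or defining. Ldha, Mpc1, Mpc2, Pdhx, Acadl, Acadm, Acadvl and Hadhb were named after their values were seen. Alternatives were DESeq2 1.42.0, RLE size factors, other filters, a replicate block, left-out libraries and, added after the data were seen, library totals alone and scaling to the 8 adipocyte markers whose average log2 CPM was 5 or more.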

Additional observations from a re-analysis of the deposited data

Results flagged for a closer look

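In 5 of 78 groups of 5 libraries (38 members and Fam20c, in control and in KO), 1 library stood apart by the ratio of its gap to the group's range, where chance gives about 1 in 20, or 3.90 of 78. Of the 5, 3 were control library 4. Pdk1 was highest there, with 273 CPM against 129 to 170.3 in the other controls (ratio 0.712). Mccc1 was lowest there, with 99.5 CPM against 117 to 122 (ratio 0.765), and Mccc2 likewise, with 74.9 CPM against 83.3 to 85.3 (ratio 0.814). Acadsb was lowest in KO library 1, with 180.2 CPM against 201 to 207 (ratio 0.804). Pcca was lowest in KO library 3, with 249 CPM against 271 to 275 (ratio 0.875).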

How the results depend on the processing

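Under 18 alternatives, 653 of 684 results for single members kept their direction and their side of the adjusted limit, 6 newly passed it, 7 (all Idh2) no longer passed it and 18 changed sign, none of them a called value. DESeq2 called 484 genes (125 higher, 359 lower) against 309 (44 higher, 265 lower) by edgeR, and called 2 TCA cycle, 2 pyruvate and 1 branched-chain members. Without control 4 and KO 1 together, 498 genes (145 higher, 353 lower), 2 TCA cycle members and 1 pyruvate member were called. With library totals alone 0 TCA cycle members were called. Without the filter on low counts 5 branched-chain members and 4 respiratory subunits were higher at an unadjusted p under 0.05, against 2.59% of all genes in that fit. With scaling to the adipocyte markers 482 genes (22 higher, 460 lower) and 0 TCA cycle members were called, and the medians were 0.028 (TCA cycle), 0.043 (pyruvate) and 0.013 (branched-chain). The cause of these differences was not tested. Under that scaling the log2 fold change was below 0 for Dlst (-0.0046), Mdh1 (-0.027), Pcx (-0.030), Bckdha (-0.0050), Bckdk (-0.020), Ppm1k (-0.054), Mccc1 (-0.054), Mccc2 (-0.0026) and Acad8 (-0.013). With library totals alone it was -0.0060 for Ppm1k and -0.0067 for Mccc1, and without control 4 and KO 1 together -0.010 for Mccc1.

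With each library left out in turn, edgeR called 187 to 442 genes (187 without KO 2, 194 without KO 5, 205 without control 5) and 0 to 1 TCA cycle members, with 0 pyruvate and 0 branched-chain members in each of these 10 fits. The medians ran from 0.083 to 0.11 (TCA cycle), 0.087 to 0.13 (pyruvate) and 0.068 to 0.092 (branched-chain), Fam20c from -0.54 to -0.43, Ppm1k from -0.021 to 0.051 and Mccc1 from -0.032 to 0.042.

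Replicate numbers 1 to 5 are shared by both groups, and the labels do not say whether same-numbered libraries were paired. Their deviations from the group means correlated at -0.173, 0.0892, 0.263, -0.251 and 0.0337, and only number 3 correlated best with its own. These correlations cannot show whether same-numbered cultures had more than a number in common. With the replicate block 14 members were higher at an unadjusted p under 0.05, against 3.72% of all genes. With it 214 genes were called (21 higher, 193 lower), 1 TCA cycle member, 0 pyruvate and 0 branched-chain members. The medians were 0.098, 0.11 and 0.083 and the Fam20c log2 fold change was -0.49.

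Among genes outside the module the block also ended the calls of Me1 (adjusted p = 0.0599) and Col1a1 (adjusted p = 0.0993).

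Members of low level (Pdp1, Ppm1k) rest on as few as 314 and 351 counts a library.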

Other observations

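Pdk1 and Ldha, lactate dehydrogenase A, which regenerates NAD from pyruvate, were both highest in control library 4 and KO library 1. Ldha had 1818, 1700, 1816, 2523 and 2034 CPM across controls 1 to 5, against 2693, 2167, 1966, 1977 and 2095 CPM across KO 1 to 5. These 2 libraries stood above the other 8, and edgeR gave Ldha a log2 fold change of 0.14 (SE 0.11, adjusted p = 0.714). Without control 4 and KO 1 together Ldha had a log2 fold change of 0.16 (adjusted p = 0.202), and it was 0.090 without control 2, 0.25 without control 4 and 0.055 without KO 1. Among the 12 related genes of pyruvate entry Mpc1 was also the highest of its groups in these 2 libraries, while Pdhx and Mpc2 were the lowest. Bckdk and Pcca shared this arrangement among branched-chain genes, with control 4 the highest control and KO 1 the highest KO library, opposite to the 9 branched-chain genes that were lowest there. Genes outside the module, such as Acadl and Acadm, were also lowest there. Ldha, Mpc1, Mpc2 and Pdhx were chosen after their values were seen, and the cause of the arrangement was not tested.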
